A study of Mus musculus with 9 samples.

Results

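Resident-like macrophages marked by Cd163 and Mrc1 were the subject here, a class of nuclei within an sNuc-seq (single-nucleus RNA sequencing) data set of mouse hearts. A nucleus was a member if it held a transcript of at least 3 of 8 wanted genes (Cd163, F13a1, Cbr2, Mrc1, Lilra5, Ptpro, Aoah and Cd86). It could hold at most 2 of 9 injury genes (Gpnmb, Adam8, Gm5150, St18, Arg1, Sirpb1c, Cd300lf, Lilr4b and Ctss) and at most 2 of 6 genes of other cell types (Pecam1, Ptprb, Abca8a, Pdgfra, Rbm20 and Ldb3). Of 49171 nuclei in the deposited tables, 4168 met this rule (8.48%). The study states a larger number of nuclei after quality control, and the shares here refer to the tables alone. The rule reads expression in these same samples, so the levels of its 23 genes are given as a description with no test. A nucleus with 3 or more injury genes could not be a member, and all values below are those of nuclei under that limit. For comparison, 4371 nuclei with at least 3 injury genes and at most 2 genes of other cell types are called injury macrophages, and the 40632 nuclei that met neither rule are called other nuclei. Other nuclei therefore still hold myeloid nuclei that missed both rules.

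The mice were C57BL/6, with 3 mice in each of 3 groups and no genetic change named. Sham mice were gavaged with vehicle for 7 days and then underwent surgery with no vessel tied. In I/R mice, the 7 days of vehicle were followed by 30 min of ligation of the left anterior descending coronary artery and 24 h of reperfusion. SBP mice were given MUSKARDIA, a Chinese herbal medicine also named Shexiang Baoxin Pill (SBP), for 7 days before the same 30 min of ischemia and 24 h of reperfusion. Tissue came from below the ligation, and nuclei were isolated from frozen hearts. Every injured group was thus sampled at 1 time, and SBP was not given to mice without ischemia. The unit of replication was the mouse, and a level is given as CPM, the transcripts (unique molecular identifiers, UMIs) of a gene as counts per 1000000 UMIs summed over the member nuclei of 1 mouse and scaled with TMM factors. Total UMIs of a sample ranged from 10329520 to 18205985, and those of its members from 551539 to 1367668. The median number of UMIs in a member nucleus was 1375, 1435 and 1620 in the sham samples, 1681, 1710 and 1784 in the I/R samples and 1646, 1756 and 1792 in the SBP samples, so sham members were the shallowest. Among barcode sequences, 290 occurred in more than 1 sample, of which 2 belonged to members in more than 1 sample.

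Macrophages of the healthy heart clear dying cells and debris and present antigen on MHC class II. They take up complexes of hemoglobin and haptoglobin through Cd163 and bind mannosylated glycoproteins through Mrc1 (CD206). A self-renewing part of them carries Lyve1, Timd4 and Folr2, while another part is replaced by blood monocytes that carry the chemokine receptor Ccr2. After ischemia, monocytes enter the infarct and take on inflammatory and later repair programs, in which genes such as Spp1, Gpnmb and Arg1 are known to rise.

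The label was checked with genes that the rule did not read. At least 2 of 18 macrophage identity genes were detected in 89.7% to 99.1% of the members of a sample, against 10.2% to 61.8% of the other nuclei, where I/R replicate 1 had the highest share. Csf1r, the receptor for the macrophage growth factor CSF1, had a UMI in 51.0% ± 5.82 of sham members, 49.0% ± 7.91 of I/R members and 52.8% ± 6.07 of SBP members (SD, n = 3). The same share was 3.09% ± 0.752, 5.21% ± 2.91 and 3.15% ± 1.49 in the other nuclei. Csf1r was thus far more frequent in members than in nuclei that mostly belong to types without it, and the other nuclei were not shallower, with median UMIs of 1567 to 2035. Adgre1, which encodes F4/80, was detected in 51.2%, 61.6% and 60.3% of members on average and in 2.92%, 7.5% and 4.11% of other nuclei. Mertk, a receptor for apoptotic cells, was detected in 64.3%, 75.4% and 71.5% of members against 12.4%, 20.2% and 14.9% of other nuclei. Injury macrophages carried the same genes, with Mertk in 75.8% of I/R and 65.7% of SBP nuclei, Adgre1 in 68.1% and 61.4% and at least 2 identity genes in 95.1% or more, so these genes were not particular to the members. At most 1 marker of B cells, T cells, neutrophils or dendritic cells was found in only 31.0% to 60.4% of the members of a sample, and among these markers Bank1 and Ebf1 had a UMI in 39.3% and 37.9% of all members. None of the 18 identity genes was called between any groups of mice, and their median log2 change after I/R was 0.30 against 0.02 for all genes tested. Without I/R replicate 1, Cx3cr1 was called lower in I/R than in sham.

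Among the rule's own genes, the level pooled over the nuclei of a group (CPM without TMM scaling) was 886, 1077 and 1037 for Cd163 in sham, I/R and SBP members, with a UMI in 52.9%, 54.8% and 58.6% of nuclei. Mrc1 was found in 93.9%, 91.6% and 93.1% of members. F13a1, the transglutaminase coagulation factor XIII A chain, was found in 89.8%, 95.1% and 96.7%. These genes were common in all groups, while Cbr2 lay between 25.6% and 34.1% and Lilra5 in the range of 16.8% to 31.0%. The injury genes still occurred within the limit of the rule. Gpnmb had a pooled level of 0 in sham members, 47.9 CPM in I/R members and 16.6 CPM in SBP members, and Arg1, the arginase of wound macrophages, 0, 44.9 and 20.2 CPM. At the edge of the rule, 1060 members held exactly 3 wanted genes and 2268 nuclei missed membership with 2. Likewise 1041 members held 2 injury genes (10.3% of sham, 37.2% of I/R and 29.6% of SBP members) and 603 nuclei were left out for holding 3, and 747 members held 2 genes of other cell types while 224 nuclei were left out for holding 3.

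**Figure D1:**
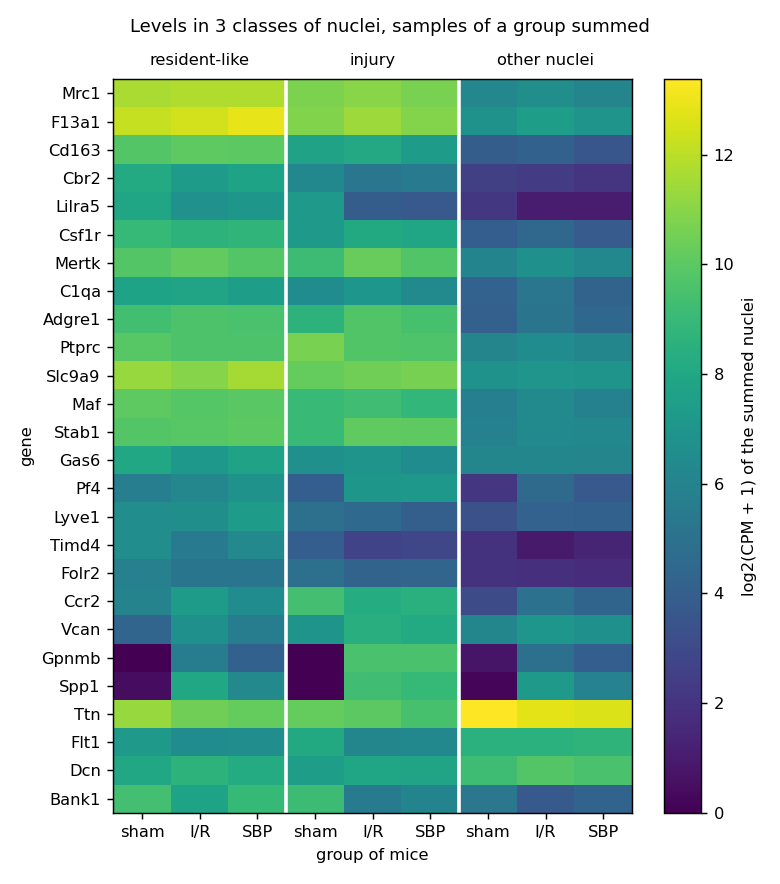
Level of 26 genes in resident-like macrophages, injury macrophages and other nuclei (columns, by group of mice), as log2(CPM + 1) of the nuclei of a group summed without scaling. Mrc1, F13a1, Cd163 and Slc9a9 are high in all 3 member columns, Gpnmb and Spp1 are at or near 0 in sham, and the cardiomyocyte gene Ttn is present in every column and highest in other nuclei.

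Cardiomyocyte and fibroblast transcripts were lower in members than in other nuclei, and their levels differed between the groups. The summed level of 14 cardiomyocyte markers in members was 12419 to 15594 CPM in sham, 6046 to 7754 in I/R and 3794 to 6743 in SBP samples, against 39354 to 43721, 20196 to 33870 and 22112 to 26651 CPM in other nuclei. Ttn and Myh6, of the cardiomyocyte sarcomere, had a UMI in most sham members (90.9% for Myh6). Summed fibroblast markers in members ranged from 1304 to 1581 CPM in sham and from 2324 to 2354 CPM in I/R samples. The 10 B cell markers together stood at 1029 to 1485 CPM in sham, 483 to 888 CPM in I/R and 866 to 1166 CPM in SBP members, against 1034 to 1616, 1284 to 1659 and 1724 to 2292 CPM in other nuclei. In members most of this sum came from Bank1 and Ebf1, with pooled levels of 445 and 395 CPM, while Cd79a had 9 and Ms4a1 12 UMIs over all 9 samples. Cd3e of T cells had 3 UMIs. Of neutrophil markers, Ly6g had 3 UMIs over all members, while S100a8 had a UMI in 10.1% of I/R members and in 9.58% of other I/R nuclei. The 11 neutrophil markers together were higher in members than in other nuclei of sham samples, at 92.5 to 94.3 against 12.2 to 28.6 CPM, as were the 11 dendritic cell markers, at 408 to 577 against 161 to 167 CPM. In I/R the neutrophil markers summed to 221 to 679 CPM in members and 84.1 to 414 CPM in other nuclei. In SBP these sums were 141 to 209 and 67.8 to 147 CPM. In I/R members the dendritic cell markers summed to 289 to 428 CPM and in SBP members to 416 to 500 CPM. The part of free RNA or of doublets in the results below was not tested.

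The number of members was 337, 545 and 705 in sham replicates 1, 2 and 3, 588, 409 and 493 in the I/R replicates and 325, 426 and 340 in the SBP replicates. As a share of the nuclei of a sample this was 7.36%, 9.21% and 12.7% in sham, 9.16%, 7.89% and 8.69% in I/R and 6.41%, 7.5% and 6.64% in SBP. The means were 9.77% ± 2.74, 8.58% ± 0.643 and 6.85% ± 0.574 (SD, n = 3). I/R lay inside the range of sham, SBP replicate 2 inside it as well, and the SBP shares were all below the I/R shares. No test was made, because the rule itself reads genes that move with injury. Injury macrophages made up 0.175%, 0.203% and 0.163% of sham nuclei, 22.3%, 18.1% and 8.27% of I/R nuclei and 5.23%, 17.1% and 5.21% of SBP nuclei. I/R and SBP overlapped there through I/R replicate 3 and SBP replicate 2. Against all nuclei of either macrophage rule in place of all nuclei, the difference in the resident-like share was −61.2 percentage points for I/R minus sham and 10.3 points for SBP minus I/R, so the denominator turned the direction between SBP and I/R. The difference of I/R from sham also changed sign without sham replicate 3 (0.295 points in place of −1.19) and with no limit on injury genes (6.95 points).

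**Figure D2:**
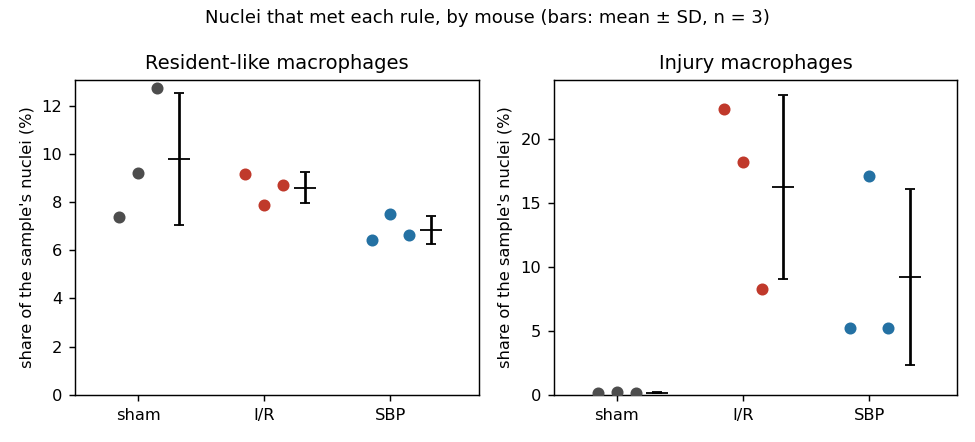
Share of the nuclei of each mouse that met the rule for resident-like macrophages (left) or injury macrophages (right), with mean and SD (n = 3). Resident-like shares lie between 6.41% and 12.7% in all 9 mice, while injury macrophages are at most 0.203% in sham and reach 22.3% in I/R.

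Genes of the long-lived resident program were detected in a part of the members. Lyve1, Timd4 or Folr2 had a UMI in 28.3% ± 3.84 of sham members, 25.6% ± 8.64 of I/R members and 32.7% ± 3.74 of SBP members, against 3.10%, 4.87% and 4.29% of other nuclei. In injury macrophages the share was 14.4% in sham (29 nuclei), 9.44% in I/R and 8.10% in SBP. With every nucleus thinned to 1000 UMIs, which left out 22 shallower members (7 sham, 11 I/R and 4 SBP), the member shares were 20.3%, 15.7% and 21.6%, so the groups overlapped at both depths. Timd4, a phosphatidylserine receptor, stood at 93.4, 114 and 76.4 CPM in sham, 33.0, 58.5 and 47.0 CPM in I/R and 73.3, 72.1 and 85.5 CPM in SBP samples. All I/R samples were below all sham and all SBP samples, yet the change after I/R (log2 −1.04 ± 0.24 SE, limma adjusted p = 0.054) missed the threshold. Of all tested genes, 19.3% did not overlap between I/R and sham and 10.2% between SBP and I/R. The list of resident heart macrophage genes summed to 6110 to 6475 CPM in sham, 4272 to 6649 in I/R and 6819 to 8004 in SBP members. Injury macrophages had 3945 to 5179 CPM in I/R and 3903 to 4586 CPM in SBP samples, so both classes overlapped in I/R. Slc9a9, an endosomal sodium and proton exchanger, was in 90.4%, 80.9% and 92.1% of members. Lyve1, the hyaluronan receptor, differed widely within groups, with 161, 46.6 and 94.3 CPM in sham, 54.6, 88.3 and 152 CPM in I/R and 244, 97.3 and 196 CPM in SBP samples.

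Ccr2 nuclei were a minority of members. In sham, 13, 31 and 36 member nuclei held Ccr2, in I/R 172, 12 and 40, and in SBP 16, 54 and 32. I/R replicate 1 stood apart with 29.3% of its members, against 2.93% to 12.7% in the other injured samples, and the same library had the highest Ccr2 share of other nuclei (14%). On average Ccr2 was found in 4.88% ± 0.935 of sham, 13.4% ± 13.9 of I/R and 9.0% ± 3.89 of SBP members, and the level was not called (log2 change after I/R 0.35 ± 0.93, adjusted p = 0.92).

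The comparison of I/R with sham asked which genes differed in resident-like macrophages 24 h after reperfusion. Of 9779 genes tested with limma, 121 were called (1.24%), which needed an adjusted p no higher than 0.05 and a log2 fold change beyond 0.25 in size, 69 higher (0.706%) and 52 lower (0.532%). Of the gene lists, that of injury macrophage genes held 7 genes that rose, that of the circadian clock 5 that fell and that of MHC class II presentation 2 that fell. Of markers of other cell types, 4 of 11 fibroblast genes and 2 of 4 neutrophil genes rose and 4 of 14 cardiomyocyte genes fell. For 19.3% of all tested genes the I/R and sham samples did not overlap, which is the background for each such statement below. Of the 121 called genes, only Thbs1, Sfxn5, Igf2bp3 and Asgr2 were also called for a change that differed from that in other nuclei, as given below. The count was 28 without sham replicate 3, 340 without I/R replicate 1, 5 when members could hold no injury gene and 20 when they could hold at most 1 marker of the other immune cells, a limit chosen after seeing the data. Genes tested were 5094 with no injury gene and 6517 with the immune limit, in place of 9779. With no injury gene 1333 members were kept, and with the immune limit 31.0% to 60.4% of the members of a sample. Of 41 named genes called in this comparison, 14 kept their call in each of the 9 fits that left out 1 sample (Adam12, Timp1, Lox, Dbp, Nr1d2, Mmp19, Hmox1, Pdgfb, Rasgrp3, Tnni3, Postn, Col1a1, Col3a1 and Col1a2).

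Of 18 tested injury macrophage genes that the rule did not read, 7 rose (Spp1, Mmp19, Pdpn, Hmox1, Ctsl, Lgals3 and Capg) and none fell, with a median log2 change of 1.54 against 0.02 for all genes. Hmox1 (chr8:75093621-75100589, GRCm38), the heme oxygenase that breaks down heme, stood at 16.5, 14.4 and 14.8 CPM in sham, 114, 55.1 and 70.5 CPM in I/R and 52.6, 29.8 and 46.3 CPM in SBP samples. Every injured sample was above every sham sample, with a log2 change after I/R of 2.25 ± 0.30 (adjusted p = 0.0025). Other nuclei averaged 1.31 and 28.8 CPM of Hmox1 in sham and I/R, and the difference of the changes was not called (log2 −1.36 ± 0.30, adjusted p = 0.12). Ctsl, a lysosomal protease, went from 20.1, 24.4 and 28.9 CPM in sham to 114, 95.2 and 81.7 CPM in I/R (log2 1.95 ± 0.27, adjusted p = 0.0032). Lgals3, the lectin galectin-3, was called narrowly, at 27.5, 26.6 and 54.9 CPM in sham against 182, 82.6 and 93.9 CPM in I/R (log2 1.68 ± 0.35, adjusted p = 0.046). Mmp19, a matrix metalloproteinase, was at 0, 2.22 and 3.71 CPM in sham and 18.2, 73.4 and 35.7 CPM in I/R (log2 3.92 ± 0.63, adjusted p = 0.010). All 3 genes were higher in each I/R sample than in any sham sample.

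Spp1 (chr5:104435118-104441050), which encodes the secreted protein osteopontin, was nearly absent in sham members (0, 1.11 and 0 CPM). It stood at 565, 41.3 and 94.9 CPM in I/R and at 25.5, 147 and 42.1 CPM in SBP samples. Over the pooled members there were 789 UMIs in I/R against 1 in sham, a ratio of 714 with an exact 95% interval of 128 to 28236 that covers counting error only. Without I/R replicate 1 this ratio was 198. The call (adjusted p = 0.012) was lost without sham replicate 3 (0.057). I/R replicate 1 was the highest, with a UMI in 63.6% of its members and in 63.2% of its other nuclei. In the other I/R replicates these shares were 5.13% and 16.6% in members and 6.47% and 15.7% in other nuclei. Members and other nuclei of a library thus had similar shares at full depth. With nuclei thinned to equal depth, the I/R replicates in order had 44.2%, 2.92% and 9.73% in members. Other nuclei, which still hold myeloid nuclei, then had 36.6%, 3.11% and 7.82%. The part of free RNA in the Spp1 of members was not tested.

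**Figure D3:**
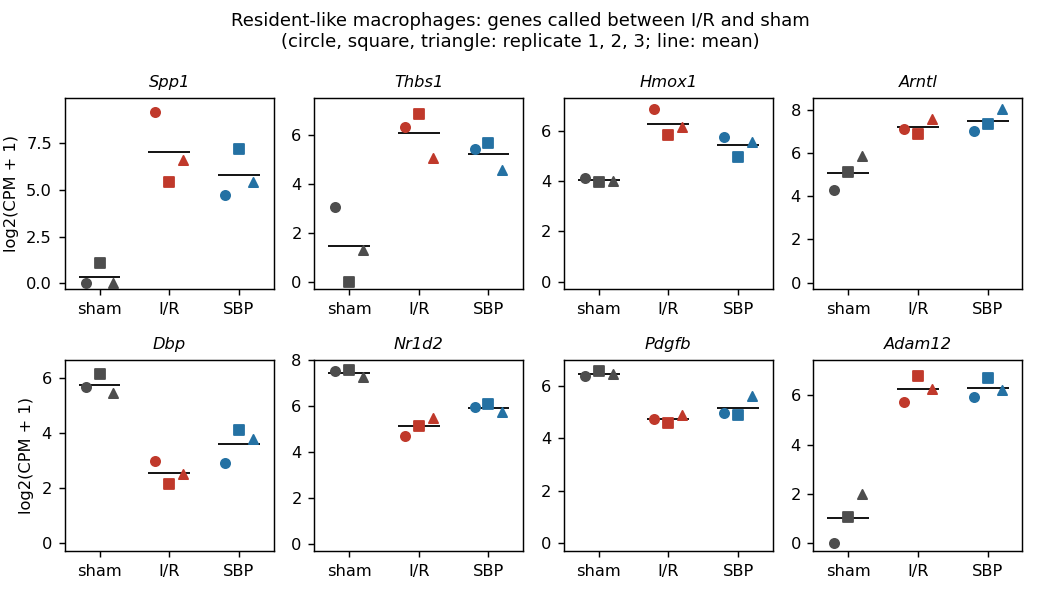
Level of 8 genes called between I/R and sham in resident-like macrophages, as log2(CPM + 1), with 1 point per mouse (circle, square and triangle for replicates 1, 2 and 3) and the mean as a line. Spp1, Thbs1, Hmox1, Arntl and Adam12 are higher and Dbp, Nr1d2 and Pdgfb lower in each I/R mouse than in any sham mouse.

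Of 10 tested genes of recruited monocytes, 2 rose, with a list median of 1.74. The whole list summed to 348 to 674 CPM in sham, 1313 to 2123 in I/R and 1016 to 1321 in SBP members. Injury macrophages had 1911 to 4943 CPM in I/R and 2893 to 4832 CPM in SBP samples, so both classes overlapped in I/R. Thbs1 (chr2:118111876-118127133), which encodes thrombospondin 1, stood at 7.32, 0 and 1.48 CPM in sham and 78.9, 115 and 31.9 CPM in I/R (log2 4.62 ± 0.72, adjusted p = 0.015). Without sham replicate 3 or without I/R replicate 2 this call was lost (adjusted p 0.055 to 0.072). Chil3, a chitinase-like protein of alternatively activated macrophages and monocytes, had no UMI in the sham members, 6.07, 75.7 and 24.4 CPM in I/R and 12.7, 21.8 and 18.2 CPM in SBP samples. Set against a floor of 3 UMIs over the sham group, Chil3 was at least 29.9-fold higher in I/R and at least 16.8-fold higher in SBP, pooled over the members of a group. Without I/R replicate 2, the highest, the bound in I/R was 13.9-fold. Its call between I/R and sham (adjusted p = 0.010) narrowly missed the threshold without sham replicate 3. Of 9 alternative activation genes, Chil3 and Il4ra, the receptor for interleukin 4, rose. Il4ra went from 103, 49.9 and 62.3 to 147, 239 and 199 CPM (log2 1.47 ± 0.25, adjusted p = 0.013), without overlap, and lost its call without sham replicate 2 or 3.

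Transcription factors were mostly not called, with 2 of 28 higher and a median of 0.03. Cebpb, a factor of myeloid and acute phase genes, was at 75.1, 34.4 and 77.2 CPM in sham and 175, 239 and 221 CPM in I/R (log2 1.83 ± 0.35, adjusted p = 0.035). Fosl2, a member of the AP-1 family, rose by 2.34 ± 0.42 on the log2 scale (adjusted p = 0.018). Either call was lost when any 1 sham sample was left out, and that of Cebpb also without I/R replicate 2 or 3. Among 14 genes of iron and heme handling, Hmox1 and the ferritin light chain Ftl1 rose, Ftl1 from 65.9, 102 and 93.5 to 281, 192 and 159 CPM (log2 1.25 ± 0.24, adjusted p = 0.023). The call of Ftl1 held in 5 of the 9 fits that left out a sample, and the list median was −0.05.

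Matrix genes of fibroblasts rose in members too. Of 11 fibroblast markers 4 rose (Postn, Col1a1, Col3a1 and Col1a2), and of 14 cardiomyocyte markers 4 fell (Myl2, Tnni3, Tnnc1 and Mb). Col3a1 stood at 31.1, 48.8 and 39.3 CPM in sham members and 472, 360 and 284 CPM in I/R members, while the mean of the other nuclei went from 88.3 to 746 CPM. For Col1a1 the change in members differed from that in other nuclei by −0.02 on the log2 scale. These are known as transcripts of other cell types, and the part of free RNA in their change was not tested. Adam12 (chr7:133883199-134232146), a membrane metalloprotease, is placed beside them because its level was also higher in other nuclei. It stood at 0, 1.11 and 2.97 CPM in sham members, 51.2, 109 and 75.2 CPM in I/R members and 60.6, 103 and 72.9 CPM in SBP members (log2 change after I/R 5.22 ± 0.46, adjusted p = 0.00016). Other nuclei averaged 18.2, 221 and 206 CPM of Adam12 in sham, I/R and SBP. Timp1, an inhibitor of matrix metalloproteinases, had 2 UMIs in sham members and 124 in I/R members, a pooled ratio of 56.1. The exact 95% interval of this ratio, 15.2 to 468, covers counting error only. By limma on the samples, Timp1 was called after I/R (adjusted p = 0.00016), with 1.46 and 50 CPM in other nuclei.

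Of 18 tested clock genes, Arntl rose and Dbp, Nr1d1, Nr1d2, Tef and Per3 fell. In the mammalian clock, ARNTL with CLOCK drives Dbp, Tef, Nr1d1, Nr1d2 and the Per genes through E boxes, and NR1D1 and NR1D2 repress Arntl. Dbp (chr7:45705088-45710203, overlapped by Sphk2 on the other strand) stood at 49.4, 69.9 and 42.3 CPM in sham, 6.94, 3.44 and 4.70 CPM in I/R and 6.37, 16.0 and 12.6 CPM in SBP samples. It fell by 3.20 ± 0.39 on the log2 scale after I/R (adjusted p = 0.0015). Nr1d2 (chr14:18204054-18239127) went from 187, 189 and 153 CPM to 25.2, 34.4 and 44.2 CPM (log2 −2.34 ± 0.22, adjusted p = 0.00016), with 60.6, 67.6 and 53.3 CPM in SBP samples. Arntl moved the other way, from 18.3, 33.3 and 56.4 CPM in sham to 135, 118 and 189 CPM in I/R and 131, 159 and 264 CPM in SBP (log2 change after I/R 2.11 ± 0.38, adjusted p = 0.026). For these 3 genes, no injured sample overlapped a sham sample, and the call of Arntl was lost without sham replicate 2 or I/R replicate 2 or 3. The means of other nuclei differed in the same direction, where Dbp averaged 93.4, 6.94 and 30.8 CPM and Arntl 10.5, 103 and 41.8 CPM. The hour at which each heart was taken is not given in the sources used here, so time of day and injury cannot be told apart.

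The promoters of these clock genes are shown because the genes moved together and because their clock motifs are known by their letters. In the 250 bases before each RefSeq start (GRCm38.p6), CACGTG, the canonical E box (its own reverse complement), is held by 6.02% of 32851 starts, and TTANGTAA on either strand, the D box bound by DBP and TEF, by 2.06%. Tef held an E box in both of its start windows, and Per3 held 2 D box matches. In Dbp, Nr1d1, Nr1d2 and Arntl, neither set of letters occurs in the window. Capitals mark the match, which starts 127 bases before the start of Tef in the first window and 205 and 158 bases before that of Per3.
Tef, chr15:81802423-81802672, + strand, E box: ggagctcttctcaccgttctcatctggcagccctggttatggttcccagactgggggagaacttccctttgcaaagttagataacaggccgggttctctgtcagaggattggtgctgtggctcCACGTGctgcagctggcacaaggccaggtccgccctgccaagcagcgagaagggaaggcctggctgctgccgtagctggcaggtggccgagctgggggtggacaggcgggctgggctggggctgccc
Per3, chr4:151044666-151044915, − strand, D box: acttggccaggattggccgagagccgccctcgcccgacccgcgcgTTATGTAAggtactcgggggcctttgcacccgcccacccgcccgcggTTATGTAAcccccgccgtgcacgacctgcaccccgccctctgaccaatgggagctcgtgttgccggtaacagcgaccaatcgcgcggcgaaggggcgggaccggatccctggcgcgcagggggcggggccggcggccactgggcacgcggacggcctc

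Other genes that fell encode a growth factor, receptors and signalling proteins. Pdgfb, which encodes a chain of the growth factor PDGF, was the called gene among 11 growth factors for repair. It stood at 80.5, 94.3 and 86.1 CPM in sham and 25.2, 22.9 and 28.2 CPM in I/R (log2 −1.74 ± 0.24, adjusted p = 0.0032). SBP samples were at 30.3, 28.6 and 47.7 CPM, also below every sham sample. Rasgrp3 (chr17:75435896-75529054), an exchange factor for Ras, stood at 383, 295 and 272 CPM in sham, 114, 80.3 and 72.3 CPM in I/R and 166, 188 and 240 CPM in SBP samples. It fell by 1.83 ± 0.21 after I/R (adjusted p = 0.00099), and its SBP samples lay between the other groups without overlap. Gpr34, a receptor for lysophosphatidylserine, went from 53.1, 48.8 and 48.2 CPM to 28.6, 6.88 and 6.58 CPM (log2 −2.08 ± 0.43, adjusted p = 0.036). Cadm1, a cell adhesion molecule, went from 262, 298 and 311 CPM to 144, 51.6 and 60.1 CPM (log2 −1.91 ± 0.35, adjusted p = 0.030). In both, I/R replicate 1 was the highest of the I/R samples. Mmp13, a collagenase, stood at 27.5, 33.3 and 47.5 CPM in sham and 5.2, 4.59 and 1.88 CPM in I/R (log2 −2.96 ± 0.52, adjusted p = 0.015). Without sham replicate 2 or 3 the call of Mmp13 was lost, and Gpr34 was called in 1 of the 9 fits that left out a sample and Cadm1 in 4.

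MHC class II proteins carry peptides of engulfed material to helper T cells. Of 7 tested genes, H2-Ab1 and Cd74 fell and none rose, and the list median was −2.56 against 0.02 for all genes. Markers of other cells that carry class II had medians in the same direction, −2.14 over 3 B cell genes and −0.79 over 5 dendritic cell genes, with none called. As given above, most of the B cell sum in members came from Bank1 and Ebf1, and Cd79a and Ms4a1 had few UMIs. The summed B cell markers of members did not overlap between sham (1029 to 1485 CPM) and I/R (483 to 888 CPM), those of dendritic cells did (408 to 577 and 289 to 428 CPM), and the part of either in the MHC class II values was not tested. H2-Ab1 (chr17:34257689-34269419), the beta chain of I-A, stood at 128, 174 and 151 CPM in sham, 67.7, 12.6 and 13.2 CPM in I/R and 84.5, 56.1 and 57.5 CPM in SBP samples. It fell by 2.67 ± 0.53 on the log2 scale after I/R (adjusted p = 0.046), without overlap of the groups. Cd74, the invariant chain, stood at 412, 434 and 459 CPM in sham, 169, 43.6 and 57.3 CPM in I/R and 139, 117 and 168 CPM in SBP samples (log2 change after I/R −2.51 ± 0.41, adjusted p = 0.019). In H2-Aa, H2-Eb1, H2-DMb1 and Ciita the sham samples were above the I/R samples but the test was not passed. H2-Aa stood at 203, 202 and 200 CPM in sham against 126, 14.9 and 10.3 CPM in I/R (log2 −2.84, adjusted p = 0.11). H2-Eb1 stood at 150, 191 and 209 CPM in sham and 87.6, 8.03 and 10.3 CPM in I/R (log2 −3.13, adjusted p = 0.082). Ciita, the master activator of class II genes, had a log2 change of −2.20 (adjusted p = 0.087), with 67.7 CPM in the lowest sham and 66.8 CPM in the highest I/R sample. H2-DMa differed from this pattern, with 20.1, 37.7 and 27.5 CPM in sham and 22.6, 32.1 and 21.6 CPM in I/R.

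I/R replicate 1 set the spread of these genes. Its summed level of MHC class II genes was 572 CPM, against 125 and 154 CPM in the other I/R samples, 389 to 465 CPM in SBP and 1037 to 1333 CPM in sham samples. Without I/R replicate 1, 6 of the 7 genes were called lower in I/R than in sham, with a median of −3.12, against 167 of all 9659 genes tested. In the same fit Bank1 of 3 B cell genes (median −2.84) and Batf3 and Siglech of 4 dendritic cell genes (median −1.22) were called lower as well. H2-Ab1 was called in 1 of the 9 fits that left out a sample, the one without I/R replicate 1, and Cd74 in 4 of 9. The same library held more Ccr2 nuclei, more Spp1 in all nuclei and a higher share of other nuclei with macrophage identity genes, and the part of these in the MHC class II values was not tested.

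Per nucleus, an MHC class II gene was detected in 61.3% ± 3.56 of sham, 24.3% ± 15.3 of I/R and 29.1% ± 4.33 of SBP members, against 17.4%, 13.4% and 10.1% of other nuclei. Thinned to 1000 UMIs, the member shares were 53.2%, 16.9% and 22.0%. Among members, sham was above both injured groups at either depth. By I/R replicate, the shares at full depth were 42.01%, 15.4% and 15.6% in members and 35.6%, 14.04% and 13.2% in injury macrophages. Other nuclei of these replicates had 25.7%, 6.94% and 7.49%, so I/R replicate 1 was the highest in each class. Injury macrophages averaged 81.02% in sham (29 nuclei) and 20.02% in SBP. Split by co-detection, nuclei with an MHC class II gene but none of Lyve1, Timd4 and Folr2 made up 39.8%, 47.2% and 53.0% of sham members, 35.5%, 10.5% and 12.8% of I/R members and 18.5%, 21.8% and 24.7% of SBP members. Nuclei with Lyve1, Timd4 or Folr2 and no MHC class II gene were 15.1%, 11.9% and 14.2% in sham, 11.1%, 19.6% and 31.8% in I/R and 28.6%, 20.7% and 26.5% in SBP. The first kind was larger in every sham sample than in any injured sample, and in SBP the second kind was above every sham sample. Both kinds are shares of detected transcripts in shallow nuclei and not separate cell types.

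The promoters of class II genes are shown because several of these genes were lower in I/R in the same samples. With all samples in the fit, H2-Aa, H2-Eb1 and H2-DMb1, whose promoters are shown, were not called. They are known to share an X and Y box module, of which the Y box is an inverted CCAAT element, ATTGG. In the 250 bases before the RefSeq start, ATTGG on either strand is found in 33.8% of 32851 starts. It occurs 48 bases before the start of H2-Aa, 59 and 35 bases before that of H2-Eb1 and 61 bases before that of H2-DMb1. Capitals mark these letters or their reverse complement.
H2-Aa, chr17:34287824-34288073, − strand: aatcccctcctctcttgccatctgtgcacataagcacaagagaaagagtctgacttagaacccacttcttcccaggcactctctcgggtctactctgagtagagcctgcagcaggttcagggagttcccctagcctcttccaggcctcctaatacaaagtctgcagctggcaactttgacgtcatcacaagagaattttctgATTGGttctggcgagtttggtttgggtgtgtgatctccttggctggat
H2-Eb1, chr17:34305617-34305866, + strand: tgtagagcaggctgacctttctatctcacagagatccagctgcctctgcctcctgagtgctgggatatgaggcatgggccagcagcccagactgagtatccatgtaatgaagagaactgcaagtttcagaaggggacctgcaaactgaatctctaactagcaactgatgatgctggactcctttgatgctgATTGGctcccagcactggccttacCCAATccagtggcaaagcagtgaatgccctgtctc
H2-DMb1, chr17:34152941-34153190, + strand: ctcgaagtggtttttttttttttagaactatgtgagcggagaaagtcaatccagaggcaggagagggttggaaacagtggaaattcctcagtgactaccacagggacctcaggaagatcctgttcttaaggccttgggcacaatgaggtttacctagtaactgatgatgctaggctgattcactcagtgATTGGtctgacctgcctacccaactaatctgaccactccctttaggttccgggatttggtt

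**Figure D4:**
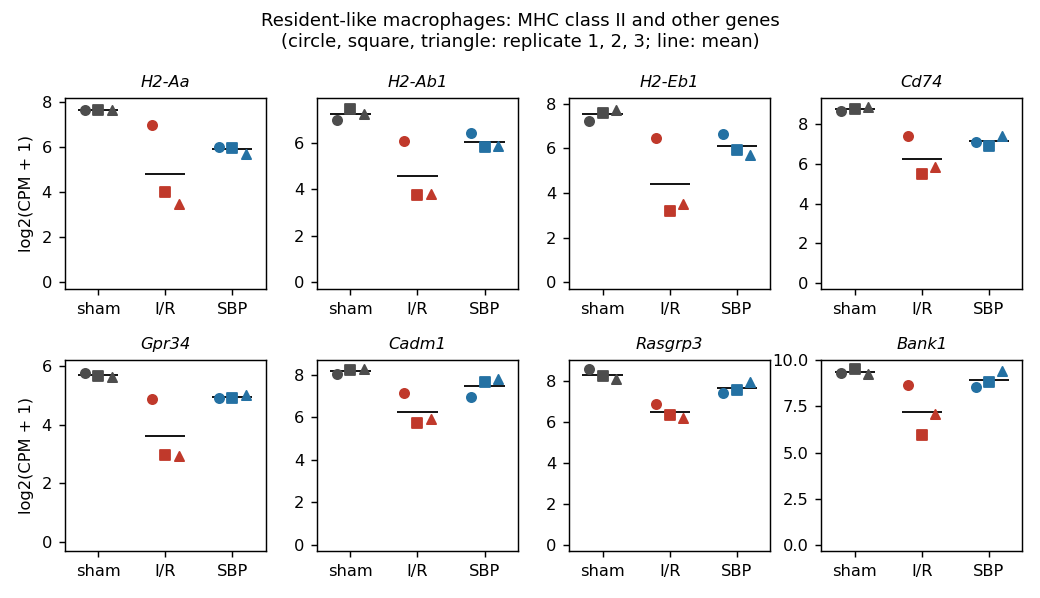
Level of 4 MHC class II genes and of Gpr34, Cadm1, Rasgrp3 and Bank1 in resident-like macrophages, as log2(CPM + 1), with 1 point per mouse (circle, square and triangle for replicates 1, 2 and 3) and the mean as a line. I/R replicate 1 lies above the other I/R mice in all 8 genes, and H2-Aa, H2-Ab1, H2-Eb1 and Cd74 are below sham in each injured mouse.

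Neutrophil genes were called in 2 of 4 tested cases, Il1r2 and Csf3r. Csf3r, the receptor for G-CSF, went from 71.4, 77.6 and 76.4 CPM in sham to 180, 216 and 106 CPM in I/R (log2 1.08 ± 0.23, adjusted p = 0.038), a call that held in 2 of the 9 fits that left out a sample. Of the 11 neutrophil markers the summed level in members was 92.5 to 94.3 CPM in sham and 221 to 679 CPM in I/R samples. Bank1, an adaptor of B cell receptor signalling, was abundant in members although defining B cell genes were close to 0. It was found in 54.3%, 20.7% and 42.9% of sham, I/R and SBP members against 6.11%, 1.87% and 2.39% of other nuclei. Its level was 633, 739 and 608 CPM in sham, 397, 62.0 and 133 CPM in I/R and 368, 459 and 682 CPM in SBP samples, and the change after I/R was not called (log2 −2.14, adjusted p = 0.11).

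Other lists gave no call after I/R. These were the resident heart macrophage genes (15 tested, median −0.09), scavenger receptors and dead cell uptake (18 tested, median 0.18) and chemokines and cytokines (13 tested, median 0.13). The same held for classical activation (8 tested, median 0.13), hypoxia and glycolysis (12 tested, median 0.18) and proliferation (11 tested, median 0.37). Complement and Fc receptors (16 tested, median 0.30), such as C1qb at 458, 364 and 379 CPM in sham and 455, 413 and 411 CPM in I/R, and interferon response genes (14 tested) were also without a call. Glucocorticoid responsive genes had a median of 1.13 over 15 tested genes with no call, and sham replicate 2 was low in Fkbp5, with 1889, 108 and 945 CPM in the sham samples. Without I/R replicate 1, when 340 of all 9659 tested genes were called, some of these lists did hold called genes. They were 3 of 15 resident heart macrophage genes, 4 of 18 scavenger receptor and uptake genes, 2 of 16 complement and Fc receptor genes and 1 of 15 glucocorticoid responsive genes. The B cell and dendritic cell markers also held called genes in that fit (Bank1, Batf3 and Siglech, given above). Among markers of other cell types, none of 12 endothelial, 3 B cell, 2 T cell or 5 dendritic cell genes tested was called (medians −0.21, −2.14, −0.60 and −0.79) with all samples in the fit, and Abcc9 of 5 smooth muscle and pericyte genes fell. Of 22 tested genes from the study's own list of macrophage genes tied to SBP, Cd74, Rasgrp3 and Plxna4 fell (Plxna4 in only 1 of the 9 fits that left out a sample). Since that list was chosen on these samples it is no independent evidence. Between SBP and I/R, the comparison nearest to the study's claim, 0 of the 22 were called (median 0.07). Without I/R replicate 1, Bank1, Rasgrp3 and Cd74 of this list were called higher in SBP.

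The comparison of SBP with I/R asked what pre-treatment changed in members. No gene was called (0 of 9779, or 0%), with 602 genes at an unadjusted p under 0.05 and a smallest adjusted p of 0.486, and voom weights gave no call either. The median SE of a log2 difference was 0.29. The samples did not overlap for 10.2% of genes. These values share the I/R samples with the comparison above. The genes with the smallest p without overlap are given as values. Hrh1, the histamine H1 receptor, stood at 31.2, 20.7 and 36.6 CPM in I/R and 66.9, 87.0 and 82.7 CPM in SBP samples (log2 1.42 ± 0.24, adjusted p = 0.49), with 51.3, 61.0 and 54.9 CPM in sham. Rasgrp3 differed by 1.15 ± 0.21 (adjusted p = 0.52). Col1a1 stood at 46.2, 108 and 63.1 CPM in SBP against 236, 161 and 147 CPM in I/R samples (log2 −1.37 ± 0.29, adjusted p = 0.62), and at 154 against 246 CPM in other nuclei.

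List medians for SBP against I/R were 0.62 for resident heart macrophage genes and 0.88 for MHC class II genes, against −0.03 for all genes, with no member called. Markers of other cell types had medians of 1.70 (3 B cell genes), 0.38 (5 dendritic cell genes), −1.10 (4 neutrophil genes), −0.43 (12 endothelial genes) and −0.42 (11 fibroblast genes), and their part in the lists above was not tested. For H2-Ab1 the difference was 1.48 (adjusted p = 0.80). Without I/R replicate 1, 13 genes were called, among them H2-Aa (log2 2.16), H2-Eb1 (2.74), H2-Ab1 (2.25), Cd74 (1.46), Gpr34 (1.97), Cadm1 (1.65), Bank1 (2.41) and Rasgrp3 (1.35), all higher in SBP. In that fit 4 of 7 MHC class II genes were called higher in SBP, against 10 of all 9659 genes tested. Cblb, a ubiquitin ligase, was lower (−1.20). These calls depended on leaving out 1 library, and with all 9 samples no difference between SBP and I/R passed the test.

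The comparison of SBP with sham gave 134 called genes (1.37%), 55 higher (0.562%) and 79 lower (0.808%), and 21.8% of genes did not overlap. It shares the sham samples with the first comparison. Injury macrophage genes rose in 7 of 18 cases (Spp1, Pdpn, Lgals3, Capg, Hmox1, Ctsl and Vim), with a median of 1.28. Spp1 is counted here, and the part of free RNA in its level was not tested. With nuclei thinned to equal depth, Spp1 was found in 3.25%, 14.4% and 4.45% of the members of the SBP replicates. Other nuclei, which still hold myeloid nuclei, then had 2.98%, 13.1% and 4.64%. Of the 9 fits that left out a sample, Spp1 and Lgals3 were called in 4, Capg and Hmox1 in 3 and Pdpn in 6. Of 41 named genes called between SBP and sham, 9 kept their call in each of these fits (Adam12, Timp1, Postn, Tuba4a, Nr1d2, Tnni3, Col3a1, Col1a1 and Col1a2). Of 15 resident heart macrophage genes, Pf4 rose. Pf4, the chemokine CXCL4, stood at 40.3, 57.7 and 52.0 CPM in sham, 72.0, 82.6 and 62.0 CPM in I/R and 172, 92.8 and 89.7 CPM in SBP samples (log2 1.17 ± 0.26 for SBP against sham, adjusted p = 0.041). Each SBP sample was above each I/R and sham sample, and the call held in 3 of the 9 fits that left out a sample. Fam129b (Niban2) rose as well, from 23.8, 29.9 and 27.5 CPM in sham to 82.9, 80.2 and 75.7 CPM in SBP (log2 1.53 ± 0.25, adjusted p = 0.015), a call that was lost without sham replicate 1 or 3 (adjusted p 0.064 to 0.071). MHC class II genes were not called (0 of 7, median −1.43). Without I/R replicate 1, which is in the fit though not in this comparison, 4 of 7 were called lower, against 112 of all 9659 genes. These 4 were H2-Ab1, H2-Aa, H2-Eb1 and Cd74, and the list median was the same. Of fibroblast markers 4 of 11 rose and 1 fell (median 0.23), and of cardiomyocyte markers 6 of 14 fell (median −1.36), and their part in the other lists was not tested. Of the clock genes Arntl rose while Dbp, Nr1d2, Tef and Rora fell, and of the fits that left out a sample Arntl was called in 7, Tef in 6 and Dbp in 4 of 9. Without sham replicate 3 the count was 24, with members that held no injury gene it was 0, and with at most 1 other immune marker it was 7.

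The change in members was also compared with that in the other nuclei of the same hearts, as the difference of both log2 levels within a sample. After I/R, 14 genes differed (0.143%), 2 in the direction of a higher change in members (0.0205%) and 12 lower (0.123%). Of these, Thbs1, Sfxn5, Igf2bp3 and Asgr2 were also called in members between I/R and sham. The other genes called in members, those of MHC class II and of the clock among them, were not called in this test. A missing call does not show that both changes were equal. Thbs1 rose more in members, from 2.94 to 75.2 CPM on average, than in other nuclei, which averaged 12.1 and 32.4 CPM (difference of log2 changes 3.15 ± 0.44, adjusted p = 0.040). Sfxn5, a mitochondrial carrier, went from 42.1, 49.9 and 48.2 to 119, 133 and 95.8 CPM in members, while other nuclei averaged 52.2 and 53.4 CPM (difference 1.26 ± 0.20, adjusted p = 0.043). Both were higher in all 3 I/R samples than in any sham sample.

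Among the 12 lower differences were 4 of 11 proliferation genes (Aspm, Top2a, Diaph3 and Mki67). Top2a, a topoisomerase of dividing cells, stood at 42.1, 74.3 and 20.04 CPM in sham members and 144, 25.2 and 24.4 CPM in I/R members, whereas other nuclei averaged 1.85 and 27.6 CPM (difference −3.20 ± 0.44, adjusted p = 0.040). Mki67 averaged 30.4 and 50.6 CPM in members and 1.85 and 19.3 CPM in other nuclei (difference −2.28 ± 0.32, adjusted p = 0.040). Members thus overlapped between groups in these genes, and the other nuclei were near 0 in sham and higher in I/R. At least 3 proliferation genes were found in 4.15%, 5.32% and 1.56% of sham members and in 12.9%, 2.93% and 1.01% of I/R members. Igf2bp3, an RNA-binding protein, fell in members from 29.3, 38.8 and 46.8 to 17.3, 9.18 and 9.39 CPM while other nuclei averaged 4.70 and 6.94 CPM (difference −2.12 ± 0.30, adjusted p = 0.040). For SBP against I/R no difference was called (0%, with 584 genes at an unadjusted p under 0.05 and a smallest adjusted p of 0.756), and voom was not run there. For I/R against sham, the 14 calls fell to 0 without sham replicate 2, sham replicate 3 or I/R replicate 2. Without I/R replicate 1 there were 26 calls, of which 8 were among the 14.

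**Figure D5:**
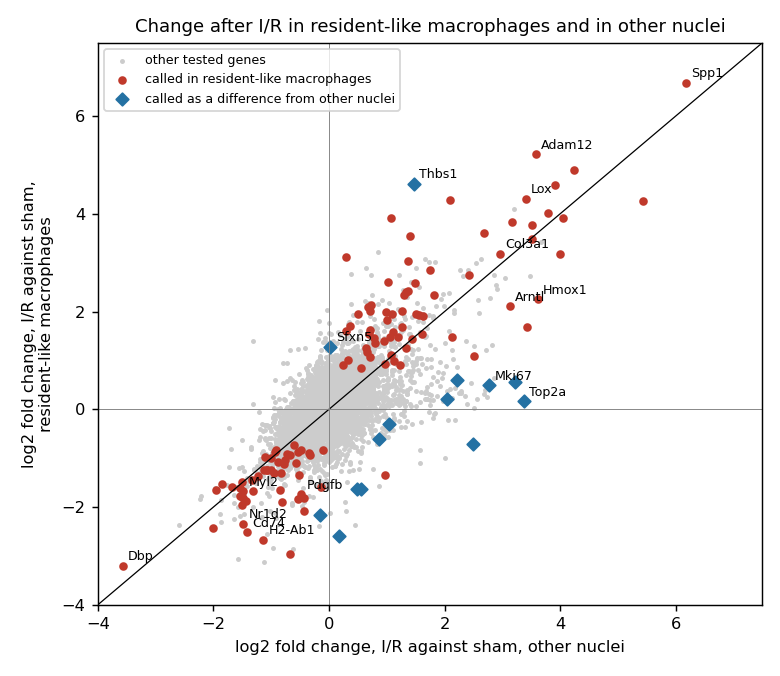
Log2 fold change of I/R against sham in other nuclei (x axis) and in resident-like macrophages (y axis), with 1 point per tested gene and a line where both changes are equal. Thbs1 lies above the line, Top2a and Mki67 lie below it, and Spp1 and Dbp changed in the same direction in both.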

How the data were processed

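The data are 9 single-nucleus libraries of mouse heart. The authors deposited a table per mouse that holds, for each gene in each nucleus, a natural log of scaled UMIs, ln(1 + 10000 × UMIs / total UMIs of the nucleus). Per the methods, reads were filtered, samples were down-sampled towards equal read depth, nuclei with few genes or a high mitochondrial share were dropped, and mitochondrial genes were removed (the tables held 0). The submitters' processing notes name Cell Ranger 4.0, STAR, Seurat 3.2.0 and GRCm38, while the methods name other versions of the first and of Seurat. UMIs were recovered by taking the smallest value of a nucleus as 1 UMI, and at least 99.999% of the values of each sample came out whole within 0.1 UMI. The depth of a sample's members, 551539 to 1367668 UMIs, limits what can be seen in low genes. No doublet caller was run, and the methods describe none.

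UMIs of members were summed per mouse, scaled with TMM factors and tested as log2(CPM + 1) with limma 3.58.1 (trend, robust) in R 4.3.3, in 1 model of 9 samples and 3 groups. Differences from other nuclei were tested on the difference of log2 levels within a sample. Fold changes on this scale understate those of low genes. Genes needed 11.4 CPM (10 UMIs in a median library) in at least 3 samples and 15 UMIs in all. P-values were adjusted by Benjamini-Hochberg over the 9779 tested genes outside the rule. The tests stayed on a log scale, as the deposited unit is a log, and no count model was fitted to the recovered UMIs. The members, the gene lists and the comparisons were chosen with earlier results of these data known. Genes were named by rule: up to 10 called genes per direction with the largest change, no overlap and at least 20 CPM in the higher group, up to 4 called genes of each list (or 2 uncalled, as values), the 5 smallest p per direction where a contrast had fewer than 10 calls, and up to 5 per direction for the difference from other nuclei. Of genes the rule named, not all are printed. Csf1r, Adgre1, Ctsl and other marker genes, Vsig4, Gas6, Igf1, Timd4, Lyve1, Ccr2, H2-Eb1, Ciita, H2-DMa and genes called without I/R replicate 1 were added after their values were seen. In a simulation of I/R against sham, 200 of 9792 tested genes were given a log2 change of 2. Of these, 91.5% were recovered, with 9 false calls. In the real samples, H2-Aa and H2-Eb1 had larger changes after I/R and were not called. Whether the 91.5% holds for genes that vary as much between replicates was not tested. Recovery of changes between SBP and I/R was not tested either. Promoters came from RefSeq (GRCm38.p6) and gene positions from GENCODE on GRCm38. The set of promoters used here had no entry for H2-Ab1 and Ciita. Replicate numbers did not pair the samples. Python 3.11.15 was used for the rest. The alternatives tried were another pseudocount, filter, scaling, weighting or set of samples, a replicate block, other memberships and leaving out each sample.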

Additional observations from a re-analysis of the deposited data

Results flagged for a closer look

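For 7 genes the change after I/R in resident-like macrophages differed from that in other nuclei of the same hearts by limma's test of the difference, and these are among the 14 such genes described above. The difference of log2 changes was 3.15 for Thbs1 and 1.26 for Sfxn5, which rose more in members. It was −3.20 for Top2a, −2.65 for Diaph3 and −2.28 for Mki67, genes of dividing cells whose mean in other nuclei was higher in I/R and whose groups overlapped in members. It was −2.12 for Igf2bp3, which fell in members, and −1.60 for Cdkn1a, an inhibitor of the cell cycle that stood at 40.3, 23.3 and 26.7 CPM in sham members and 21.7, 67.7 and 62.0 CPM in I/R members. Adjusted p-values ranged from 0.0396 to 0.0434, and each of the 7 lost its call in at least 5 of the 9 fits that left out 1 sample.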

How the results depend on the processing

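The number of genes called between I/R and sham (121) was 213 with no filter on low genes, 78 with only the 6 samples compared, 182 with at least 4 wanted genes, 5 with no injury gene and 20 with at most 1 marker of B cells, T cells, neutrophils or dendritic cells (a membership chosen after seeing the data), and 28 to 340 with 1 sample left out (lowest without sham replicate 3, highest without I/R replicate 1). The share of higher genes among the calls, 57.0%, was 42.2% with voom weights and 39.0% with at least 4 wanted genes. For SBP against I/R the count stayed at 0 except with a sample left out (0 to 13, the 13 without I/R replicate 1 and 1 without I/R replicate 3). For SBP against sham (134) it was 71 with voom weights, 320 with the 6 samples compared, 0 with no injury gene, 7 with at most 1 other immune marker and 24 to 200 with a sample left out. For the difference from other nuclei after I/R (14) it was 23 with a pseudocount of 5, 36 with a filter at 3 times the CPM minimum, 0 with no filter, with the 6 samples compared, with at least 4 wanted genes, with no injury gene or with at least 2 of Cd163, F13a1, Mrc1 and Cbr2 (chosen after seeing the data), 1 with no gene of other cell types, 2 with at most 1 other immune marker and 0 to 26 with a sample left out. Fewer genes were tested with no injury gene (5094) or with at most 1 other immune marker (6517) than in the main fits (9779). The causes of these differences in the counts were not tested. In single named genes, 3950 refits kept the side of the threshold, 598 lost a call and 14 gained one. Genes uncalled in both fits are counted among the 3950 whatever their direction. Of refits with a call in either fit, 0 turned direction.

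With the replicate number as a block, the counts were 72, 0 and 93 for I/R against sham, SBP against I/R and SBP against sham, and 9 and 0 for the differences from other nuclei. The numbers did not pair the samples: correlations of deviations from the group means ran from −0.261 to 0.151 for equal numbers and from −0.169 to 0.266 for different numbers.

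The member share of I/R minus sham (−1.19 percentage points) was 1.10 with no gene of other cell types, 3.13 with at least 2 wanted genes, 6.95 with no limit on injury genes, −61.2 of nuclei of either macrophage rule, 0.443 with at most 1 other immune marker and −2.40 to 0.295 with a sample left out. That of SBP minus I/R (−1.73) was −0.356 with at least 4 wanted genes, −0.182 with no injury gene, −0.617 with no gene of other cell types, −5.71 with at least 2 wanted genes, −6.48 with no limit on injury genes, 10.3 of nuclei of either rule and −2.08 to −1.44 with a sample left out. That of SBP minus sham (−2.92) was 0.483 with no gene of other cell types, 0.462 with no limit on injury genes, −50.9 of nuclei of either rule, −0.912 with at most 1 other immune marker and −4.13 to −1.44 with a sample left out.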

Other observations

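Among genes that fewer samples or settings decide, Vsig4, a complement receptor of tissue macrophages, stood at 27.5, 25.5 and 21.5 CPM in sham members, 19.9, 94.1 and 76.1 CPM in I/R members and 107, 59.6 and 53.3 CPM in SBP members. Each SBP sample was above each sham sample, and without I/R replicate 1 Vsig4 was called higher in I/R and in SBP than in sham. Gas6, a ligand of the receptors for apoptotic cells, stood at 227, 255 and 246 CPM in sham, 170, 90.6 and 148 CPM in I/R and 215, 186 and 243 CPM in SBP members. The I/R samples lay below both other groups, and the change after I/R was not called (log2 −0.88 ± 0.21, limma adjusted p = 0.068), while without I/R replicate 1 Gas6 was called lower. Igf1, a growth factor of resident macrophages, overlapped between all groups, with 82.4, 288 and 236 CPM in sham members, 242, 71.1 and 117 CPM in I/R members and 155, 258 and 346 CPM in SBP members.

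Nuclei with neither an MHC class II gene nor Lyve1, Timd4 or Folr2 made up 27.6%, 25.7% and 21.7% of sham members, 46.9%, 65.0% and 52.5% of I/R members and 46.8%, 49.8% and 40.3% of SBP members. Nuclei with both kinds made up 17.5%, 15.2% and 11.1% of sham members, 6.46%, 4.89% and 2.84% of I/R members and 6.15%, 7.75% and 8.53% of SBP members. No injured sample overlapped a sham sample in either share, and no test was made, since members were counted without thinning.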
